A study of Mus musculus with 18 samples.

Results

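Mouse intestinal organoids at the end of 5 days of growth (day 5) were compared with the organoid material at the start of the series (day 0). Whether the day 0 material was whole organoids, fragments or single cells is not given in the labels. The comparison uses 6 of the series' 18 libraries, namely the 3 labelled day 5 and the 3 labelled day 0, and every gene with at least 1 RPKM (a read count scaled by gene length and by the depth of the library) in at least 3 of these 6. That filter kept 10699 of 24116 genes. Intestinal organoids are closed epithelial structures grown in gel from intestinal stem cells. The series measured messenger RNA on each day from 0 to 5 to follow expression as such organoids form.

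All 6 libraries came from wild-type organoids of the C57BL/6 strain, with an age of 8 weeks in the labels, and each pooled 30 wells of a culture plate. There were 3 organoid lines, named mouse 1, 2 and 3, and each line gave 1 library on each of the 2 days. Lines 1, 2 and 3 are replicates 1, 2 and 3, and values below are given in that order. Line 1 was prepared without DNase on both days and lines 2 and 3 with it, so line and DNase treatment cannot be told apart for line 1. Before the series the organoids were maintained in a commercial growth medium. From day 0 to day 5 the medium held EGF at 100 ng/ml, Noggin (a BMP antagonist) at 100 ng/ml and R-spondin (which amplifies Wnt signalling) at 500 ng/ml. Until day 3, 20% of it was medium conditioned by Wnt3a-producing cells, and Y-27632, which inhibits ROCK, was added at 10 µM. Until day 1 it held the GSK3 inhibitor CHIR99021, which activates Wnt signalling, at 3 µM. Day 5 therefore differs from day 0 in both time and medium, and these cannot be told apart.

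The intestinal epithelium renews itself from stem cells at the crypt base, which are kept dividing by Wnt and Notch signals and sit between Paneth cells. Their progeny stop dividing and become absorptive enterocytes, which digest and take up nutrients through a brush border, or secretory cells: mucus-producing goblet cells, antimicrobial Paneth cells, hormone-producing enteroendocrine cells and chemosensory tuft cells. Organoids in medium with EGF, Noggin and R-spondin form crypt-like buds that hold stem and Paneth cells and a villus-like part with enterocytes.

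The 6 libraries had similar depth, with 43010000 to 52300000 reads implied by the deposited values, so that 1 RPKM stood for 43 to 52.3 reads per kilobase. Markers found in all intestinal epithelium, 11 genes such as keratins and E-cadherin, were present on both days, with summed levels of 2667 to 4372 RPKM at day 0 and 3094 to 3751 at day 5, and none of the 11 was called. Markers of other tissues were low: 12 of 14 mesenchymal, 13 of 14 immune, 8 of 8 endothelial, 5 of 5 red blood cell and 7 of 8 neural markers stayed under 1 RPKM in every library. The highest summed level of any of these lists was 7.37 RPKM, for immune markers in day 5 line 2. Day 0 line 1 stood apart from the other day 0 libraries. Its correlation with them across genes, which are not independent replicates, was 0.951 and 0.95, against 0.984 between those 2. In that library the stem cell marker Lgr5 was at 1.33 RPKM, against 28.3 and 32 in lines 2 and 3. Among genes singled out after their values were seen, the BMP target Id1 was at 190 RPKM there against 9.92 and 20.6, Id3 at 156 against 2.52 and 6.01, and Cldn4, a tight junction gene, at 81.9 against 9.93 and 13.8. Where leaving it out changed a call or moved a count by over 1.5 times, the value without it is given too. Of the 11 epithelial markers 4 were called higher without it.

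Between day 0 and day 5, 1527 genes rose (14.3% of those tested) and 2489 fell (23.3%), at an adjusted p under 0.05 (limma across all tested genes with Benjamini-Hochberg adjustment, two-sided). Changes are differences of log2(RPKM + 1), day 5 minus day 0, which understate the change of genes with low values. In bulk RNA, more cells of a type and more RNA per cell cannot be told apart, here or in any result that follows. Some genes entered the test through 1 day alone and so had to differ: Isx, Fmo5, Slc5a4b, AY761184, Clca1, Pdzk1, Slc6a20a, Slc15a1, Msln and Ctgf were under 1 RPKM in every day 0 library, and Fosb, Egr2 and Dpysl5 in every day 5 library. Their values below are a description. The increases were larger than the decreases: 694 genes (6.49%) rose and 370 (3.46%) fell by at least 1 on the log2(RPKM + 1) scale, with medians of 0.93 among the genes called higher and -0.68 among those called lower. Of the called genes, 1524 rose and 2489 fell in each of the 3 lines. Genes whose 3 day 5 values all lay above the 3 day 0 values numbered 2060 (19.3%), and 3794 (35.5%) lay below. The balance depends on scaling. RPKM values are shares of a library, and a small number of genes took a larger share at day 5: the 10 highest genes held 5.9 to 6.4% of the summed RPKM at day 0 and 9.9 to 12% at day 5. The median log2 change of all tested genes was -0.17 as deposited and -0.02 after rescaling each library by the median of gene ratios. Genes called higher made up 38% of all calls as deposited and 57.2% after rescaling, when 2048 genes rose (19.1%) and 1530 fell (14.3%). Without day 0 line 1, 1740 genes rose (16.3%) and 3037 fell (28.4%), including 1439 and 2287 of the genes called with all 6 libraries. In the DNase-treated lines alone the counts were 2019 (18.9%) and 3477 (32.5%). Left out in turn, other libraries lowered the count of decreases to 1313 (day 0 line 2), 1389 (day 0 line 3) and 1265 (day 5 line 2).

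**Figure D1:**
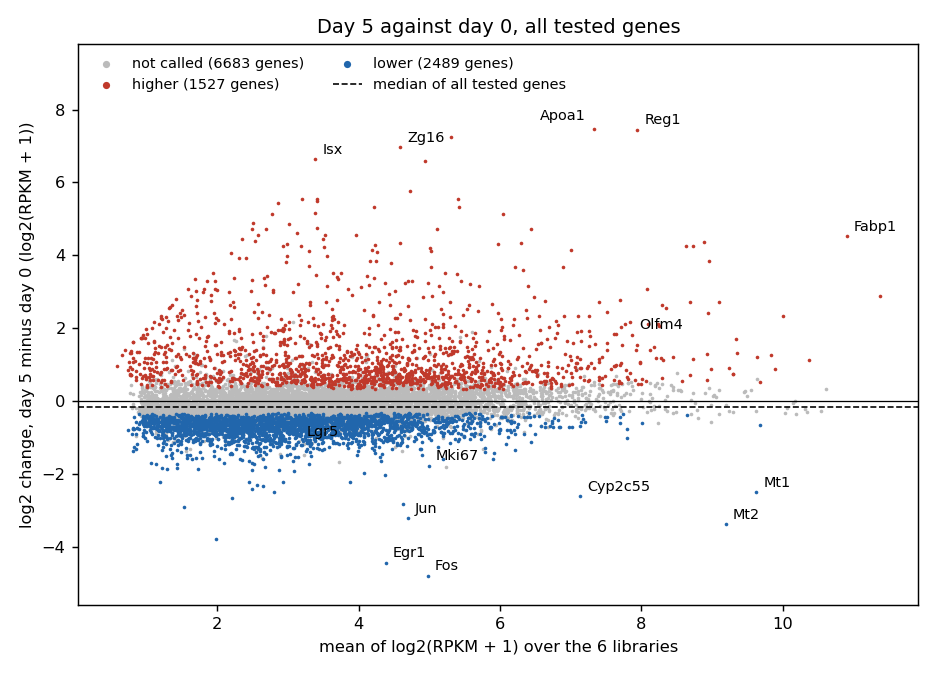
Log2 change from day 0 to day 5 (y axis) against the mean of log2(RPKM + 1) over the 6 libraries (x axis) for 10699 tested genes, with genes called higher in red, lower in blue and not called in grey. The dashed line is the median of all tested genes, -0.17; increases reach 7.46 for Apoa1 and decreases -4.80 for Fos.

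Genes of fat absorption rose most in absolute terms, and Fabp1 became the most abundant transcript. Fabp1 encodes the liver-type fatty acid-binding protein that carries fatty acids inside enterocytes (Entrez 14080, chromosome 6, 71199879 to 71205034 in GRCm38.p6). It was at 382, 421 and 391 RPKM at day 0 and at 10048, 8047 and 9553 at day 5. All 3 lines were alike on both days, and the day 5 values were a mean of 23.1-fold higher (log2 change 4.52, SE 0.16, adjusted p = 8.71e-06). Its share of the summed RPKM was 0.157, 0.169 and 0.154% at day 0 and 3.05, 2.59 and 3.16% at day 5. The sequence in front of the gene is shown because Fabp1 had the largest rise in mean RPKM and because caudal-type homeobox (CDX) proteins, which set intestinal identity, are known to bind sites with the letters TTTATGG. In the 250 bases before the RefSeq start (chr6:71199629-71199878, plus strand, GRCm38.p6), written 5′ to 3′, capitals mark the 2 matches to TTTATGG, both of them on the opposite strand and so printed as CCATAAA.
Fabp1: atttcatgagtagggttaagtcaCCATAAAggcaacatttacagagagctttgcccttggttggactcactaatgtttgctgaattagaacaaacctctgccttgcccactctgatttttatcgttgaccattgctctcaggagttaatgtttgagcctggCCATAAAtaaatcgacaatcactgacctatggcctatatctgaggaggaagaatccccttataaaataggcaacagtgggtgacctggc
Among 32851 windows of the same length before RefSeq starts, 2.43% held this motif on either strand and 0.0639% held at least 2 copies. The match is a description of the sequence. Cdx1, one of these factors and named here after its values were seen, was at 102, 103 and 98.9 RPKM at day 0 and 131, 96.1 and 104 at day 5 (log2 change 0.11, SE 0.14, adjusted p = 0.556), and its values overlapped between the days. Cdx2, the other factor of the kind, was at 178, 68.8 and 86.3 RPKM at day 0 and 71.9, 76.9 and 81.1 at day 5 (log2 change -0.41, SE 0.32, adjusted p = 0.33), with the high value in day 0 line 1.

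Of 20 tested genes of lipid absorption and lipoproteins, 1 passed the filter through day 5 alone and so had to differ. Of the other 19, 15 rose and 1 fell, against 14.3% and 23.3% of all genes, with a median log2 change of 1.88 (all genes, -0.17). The list as a whole, 23 genes, took 0.604, 0.59 and 0.493% of summed RPKM at day 0 and 5.74, 4.65 and 5.51% at day 5. Apoa1, the main protein of high-density lipoprotein (chromosome 9, 46228630 to 46230469), showed the largest log2 change of any named gene. It was at 25, 5.85 and 8.96 RPKM at day 0 and at 2563, 1745 and 2187 at day 5 (log2 change 7.46, SE 0.45, adjusted p = 0.0001). The lowest day 5 value was far above the highest day 0 value, which was in line 1. Apoa4, a chylomicron apolipoprotein, went from 161, 154 and 90.9 RPKM to 2051, 1749 and 1849 (log2 change 3.83, SE 0.23). Apoc2, the cofactor of lipoprotein lipase, went from 18, 15.5 and 7.9 RPKM to 445, 243 and 198 (log2 change 4.31, SE 0.37), and was highest in line 1 on both days. Fabp2, the intestinal fatty acid-binding protein, rose from 237, 230 and 172 RPKM to 1834, 829 and 944 (log2 change 2.41, SE 0.31, adjusted p = 0.00163). The exception was Scarb1, a receptor for high-density lipoprotein, which fell from 25.3, 37.2 and 36.5 RPKM to 8.65, 8.38 and 5.78 (log2 change -1.98, SE 0.20, adjusted p = 0.000713), with no overlap between the days.

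**Figure D2:**
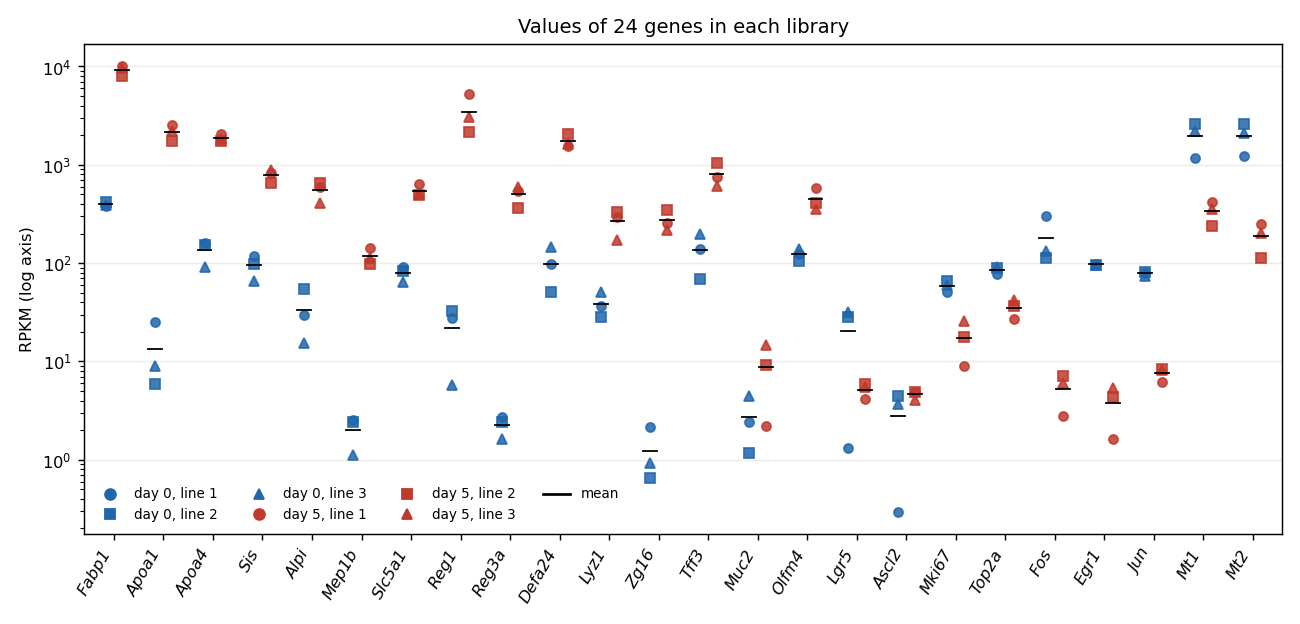
RPKM (log axis) of 24 genes in each of the 6 libraries, with day 0 in blue, day 5 in red, marker shapes for the 3 lines and black bars for the mean. Fabp1 lies between 382 and 421 RPKM at day 0 and 8047 and 10048 at day 5, while Lgr5 at day 0 lies at 1.33 RPKM in line 1 and 28.3 and 32 in lines 2 and 3.

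Enzymes of the brush border rose as a group. Of 17 tested hydrolases 1 passed the filter through day 5 alone. Of the other 16, 13 rose and none fell, against 14.3% and 23.3% of all genes, with a median log2 change of 3.03. Sis, the sucrase-isomaltase that splits sucrose (chromosome 3, 72888557 to 72967863), went from 119, 98.9 and 65.6 RPKM to 817, 660 and 889 (log2 change 3.08, SE 0.23, adjusted p = 0.000219). Alpi, intestinal alkaline phosphatase (chromosome 1, 87098002 to 87101606), went from 29.9, 54.2 and 15.3 RPKM to 595, 646 and 404 (log2 change 4.15, SE 0.42, adjusted p = 0.000648). Line 3 was lowest on both days for Alpi. The metalloprotease subunit Mep1b rose from 2.53, 2.41 and 1.12 RPKM to 143, 98.4 and 112 (log2 change 5.31, SE 0.23, adjusted p = 2.27e-05), the largest change of the list. Ggt1, a gamma-glutamyltransferase that acts on glutathione, rose from 0.467, 0.611 and 1.28 RPKM to 80.6, 32.4 and 87.1 (log2 change 5.15, SE 0.37), and Enpep, glutamyl aminopeptidase, from 4.18, 3.03 and 2.99 RPKM to 80.2, 68.8 and 78.3 (log2 change 4.13, SE 0.14). Lct, the lactase of suckling animals, stayed low: it was at 1.33, 0.843 and 0.536 RPKM at day 0 and 5.96, 4.46 and 13.4 at day 5 (log2 change 2.13, SE 0.35, adjusted p = 0.00472).

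Of 15 tested genes of microvillus structure, 1 passed through day 5 alone. Of the other 14, 9 rose and none fell, against 14.3% and 23.3% of all genes, with a median log2 change of 0.92. The scaffold protein Slc9a3r1 rose from 43.9, 49.7 and 48.5 RPKM to 198, 190 and 166 (log2 change 1.94, SE 0.12, adjusted p = 0.000111), and Myo1a, the brush border myosin, from 68.2, 50.4 and 37.6 to 202, 179 and 249 (log2 change 2.02, SE 0.23). The PDZ scaffold Pdzk1 was at most at 0.0882 RPKM at day 0 and at 3.23, 4.34 and 4.82 at day 5. Krt20, a keratin of differentiated surface cells, showed how much line 1 at day 0 weighs. It was at 91.9, 4.3 and 6.81 RPKM at day 0 and at 137, 134 and 161 at day 5 (log2 change 3.2, SE 0.96, adjusted p = 0.0352). The days did not overlap, but 1 of the 3 day 0 values was more than 10 times the others; without it the adjusted p was 0.000135, the call was lost without day 0 line 2 or 3 or any 1 of the day 5 libraries and with quantile normalization, with an adjusted p of up to 0.105 over all alternatives.

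Transporters of sugars and amino acids followed. Of 19 tested, 2 passed through day 5 alone. Of the other 17, 8 rose and none fell, against 14.3% and 23.3% of all genes, with a median log2 change of 0.57. Without day 0 line 1, and with the line as a block, 2 of the 19 fell. Slc2a5, the fructose transporter, rose from 2.9, 4.67 and 3.84 RPKM to 70.4, 59.5 and 71 (log2 change 3.83, SE 0.16, adjusted p = 2.27e-05). Slc2a2, the basolateral glucose transporter GLUT2, rose from 11.2, 6.94 and 4.41 RPKM to 91.5, 41 and 70.6 (log2 change 3.02, SE 0.37). Slc15a1, the peptide transporter PEPT1, was at 0.376, 0.119 and 0.227 RPKM at day 0 and 12.5, 4.4 and 11.9 at day 5, and Slc6a20a, which carries proline, at 0.313, 0.12 and 0.368 and then 31.4, 13.1 and 39.6. Line 2 gave the lowest day 5 value for these last 3. Slc5a4b, a member of the sodium-glucose transporter family, was among the 12 largest increases of all genes, with 0.583, 0.408 and 0.102 RPKM at day 0 and 88.8, 38.5 and 69.9 at day 5 (log2 change 5.55, SE 0.30).

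Other large increases included metabolic enzymes and retinoid genes. Rbp2, which binds retinol inside enterocytes, rose from 105, 146 and 71.1 RPKM to 2991, 1722 and 1923 (log2 change 4.37, SE 0.31). Isx, a transcription factor that represses uptake and cleavage of carotenoids, was at most at 0.0729 RPKM at day 0 and at 58.2, 133 and 144 at day 5 (log2 change 6.64, SE 0.32). Fmo5, a flavin-containing monooxygenase, went from 0.969, 0.394 and 0.38 RPKM to 65.2, 71.2 and 81.1, and Papss2, which makes the sulfate donor for sulfation, from 10, 4.27 and 3.16 to 370, 213 and 305. Adh4, an alcohol dehydrogenase, went from 1.35, 0.253 and 0.381 RPKM to 56.8, 81.9 and 74. Each of the 3 had a log2 change between 5.48 and 5.55, and in each the days were far apart in all lines.

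Retinoid genes as a list were mixed: leaving out 1 that passed through day 5 alone, 4 of 9 rose and 1 fell. Among all genes 14.3% rose and 23.3% fell, so the part that fell was smaller than among all genes. Aldh1a1, which makes retinoic acid, rose from 26.4, 20.5 and 7.36 RPKM to 472, 433 and 428 (log2 change 4.71, SE 0.40), while Ttr, the plasma carrier transthyretin, fell from 55.7, 30.6 and 40 to 10.1, 8.28 and 9.42 (log2 change -2.03, SE 0.21, adjusted p = 0.000749). Of 12 tested genes of iron handling 5 rose and none fell (1 fell without day 0 line 1), against 14.3% and 23.3% of all genes. Slc46a1, which carries folate and haem, rose from 3.31, 3.81 and 3.78 RPKM to 31.5, 14.7 and 21.5 (log2 change 2.28, SE 0.25), and Slc40a1, the iron exporter ferroportin, from 1.42, 1.11 and 0.818 to 15.6, 7.14 and 6.4 (log2 change 2.25, SE 0.30). Slc11a2, the iron importer DMT1, rose from 4.93, 12.7 and 15.5 RPKM to 40.2, 32.2 and 40.8 (log2 change 1.80, SE 0.36, adjusted p = 0.00856).

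Of 24 tested genes of fat oxidation and PPAR targets, 15 rose and 2 fell, against 14.3% and 23.3% of all genes. Their median log2 change was 0.65. Ehhadh, a bifunctional enzyme of peroxisomal fat oxidation, rose from 22.1, 26.2 and 22.8 RPKM to 81.2, 67.1 and 76.1 (log2 change 1.62, SE 0.13), and Creb3l3, a lipid-responsive transcription factor, from 57.3, 19.4 and 10 to 155, 143 and 147 (log2 change 2.66, SE 0.53).

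Genes of drug metabolism and glutathione formed one of the lists with most increases. Of 37 tested, 23 rose and 1 fell, against 14.3% and 23.3% of all genes, with a median log2 change of 1.12. Because these enzymes come in families of near-identical copies, reads may have been split between members, and single values are uncertain. Ugt2b5, a glucuronosyltransferase, rose from 5.85, 5.29 and 1.34 RPKM to 116, 74.1 and 54.9 (log2 change 4.08, SE 0.44). Sult1b1, a sulfotransferase, rose from 7.22, 6.48 and 3.91 RPKM to 97.1, 50.7 and 49.8 (log2 change 3.25, SE 0.30), and Ces1f, a carboxylesterase, from 8.32, 17.9 and 5.25 to 101, 85.7 and 103 (log2 change 3.24, SE 0.36). The member that fell was Cyp2c55, a cytochrome P450. It was at 265 to 467 RPKM at day 0 and at 48.4, 68.5 and 51.1 at day 5 (log2 change -2.62, SE 0.23, adjusted p = 0.000389), with no overlap.

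Paneth cell products rose strongly. Of 19 tested products other than defensins 4 passed the filter through day 5 alone. Of the other 15, 11 rose and 1 fell, against 14.3% and 23.3% of all genes, with a median log2 change of 2.72. Without day 0 line 1, 2 of the 19 fell. The list shares members with others described below: Reg3a, Reg3b, Reg3g and Reg4 with the Reg family, and Guca2b with ion transport. All of these shared members were called higher, so the counts of those lists are not independent. Lyz1, the Paneth cell lysozyme, went from 36.6, 28.2 and 51 RPKM to 296, 333 and 171 (log2 change 2.74, SE 0.30, adjusted p = 0.000866). Mmp7, the matrix metalloprotease that activates defensins, went from 0.602, 0.428 and 2.56 RPKM to 26.8, 44.1 and 24.3 (log2 change 3.98, SE 0.37), and Ang4, an angiogenin with antimicrobial activity, from 4.12, 1.7 and 4.67 to 94.2, 114 and 51.2 (log2 change 4.28, SE 0.37). The exception was Slc30a2, a zinc transporter of secretory granules. It was at 1.36, 8.26 and 5.22 RPKM at day 0 and at 1.26, 0.476 and 0.886 at day 5 (log2 change -1.48, SE 0.46, adjusted p = 0.0409). That call was lost with the organoid line as a block (adjusted p = 0.0662), after rescaling and without any 1 library other than day 0 line 1, with an adjusted p of up to 0.114, but it was 0.00285 without day 0 line 1.

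Among alpha-defensins, 13 of the 24 in the table were tested and 10 of those passed only because they were present at day 5, so their number is not a result. The genes are near-identical copies, and reads may have been assigned to the wrong member. Defa24, an abundant member measured on both days, went from 97.9, 50.3 and 145 RPKM to 1567, 2049 and 1617 (log2 change 4.26, SE 0.35, adjusted p = 0.000305). Defa30 went from 1.72, 3.03 and 1.84 RPKM to 277, 406 and 241 (log2 change 6.58, SE 0.23). The related clone-named gene AY761184 was at 0.079, 0 and 0.261 RPKM at day 0 and 41.4, 48.8 and 50.8 at day 5. The whole defensin list made up 0.0438, 0.0228 and 0.062% of summed RPKM at day 0 and 0.672, 0.931 and 0.713% at day 5.

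The Reg family, secreted lectins made in inflamed and regenerating gut, held 3 of the 12 largest increases. Its members are related in sequence, and how reads matching several places were counted is not given. Reg1 went from 27.6, 32.8 and 5.69 RPKM to 5240, 2148 and 3056 (log2 change 7.45, SE 0.62, adjusted p = 0.000305), Reg3a from 2.71, 2.43 and 1.61 to 542, 366 and 590 (log2 change 7.25, SE 0.22) and Reg3b from 5.9, 1.37 and 1.89 to 503, 81.3 and 176 (log2 change 5.75, SE 0.66). Reg3b and Reg1 were highest in line 1 at day 5. All 3 rose in every line. The share of the 7 Reg genes was 0.0329, 0.0197 and 0.0133% at day 0 and 1.97, 0.923 and 1.33% at day 5.

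Of 23 tested goblet cell genes 5 passed through day 5 alone. Of the other 18, 12 rose and none fell, against 14.3% and 23.3% of all genes, with a median log2 change of 1.18. Zg16, a lectin of mucus granules (chromosome 7, 127050156 to 127052675), went from 2.14, 0.652 and 0.924 RPKM to 254, 348 and 218 (log2 change 6.97, SE 0.27, adjusted p = 1.28e-05). Tff3, a trefoil peptide, went from 140, 69.2 and 197 RPKM to 744, 1036 and 613 (log2 change 2.64, SE 0.38, adjusted p = 0.00266). Clca1, a goblet cell protease, rose from 0.585, 0.0918 and 0.133 RPKM to 21.7, 57.6 and 26.3 (log2 change 4.72, SE 0.35). Muc2, which encodes the main gel-forming mucin, did not pass the test. It was at 2.43, 1.16 and 4.49 RPKM at day 0 and at 2.21, 9.12 and 14.8 at day 5 (log2 change 1.22, SE 0.59, adjusted p = 0.136), so the days overlapped in line 1. Few regulators of these fates were called. Of 24 tested, Isx passed through day 5 alone, and of the other 23, 3 rose and 2 fell. Among all genes 14.3% rose and 23.3% fell, so neither count is a larger part than among all genes. Over all 24 regulators 4 rose and 2 fell, and 7 and 3 without day 0 line 1. Atoh1, which starts the secretory fate, rose from 1.45, 0.665 and 1.35 RPKM to 3.65, 4.31 and 3.45 (log2 change 1.17, SE 0.18, adjusted p = 0.00359), and Spdef, a goblet and Paneth cell factor, from 2.92, 1.8 and 3.66 to 6.22, 8.83 and 7.39 (log2 change 1.18, SE 0.22, adjusted p = 0.00662).

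Gata5 rose from 5.66, 4.25 and 4.19 RPKM to 9.66, 9.92 and 11.3 (log2 change 0.99, SE 0.15). Foxa1, a factor of goblet and enteroendocrine cells, fell from 13.2, 12.6 and 13.7 RPKM to 5.72, 7.85 and 5.73 (log2 change -0.94, SE 0.14, adjusted p = 0.00359), and the fall of Hes1 is given with the Notch genes.

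In other secretory types few genes were called. Of 21 tested enteroendocrine genes only Reg4, which the Paneth list also holds, was called, and the median log2 change of -0.19 was close to that of all genes. Chga, a granule protein of these cells, was at 27.9, 10.7 and 30.5 RPKM at day 0 and at 16.9, 15.7 and 18.9 at day 5 (log2 change -0.28, SE 0.35, adjusted p = 0.544). Its day 0 values lay on both sides of those of day 5. Only 4 tuft cell genes of 19 were tested. The tuft marker Dclk1 was at most at 0.143 RPKM in the 6 libraries, and Ltc4s, an enzyme of leukotriene synthesis, rose from 0.449, 1.07 and 1.06 RPKM to 3.24, 2.5 and 3.93 (log2 change 1.19, SE 0.20). Of 7 tested genes known from M cells, which sample antigen, 1 passed through day 5 alone. Of the other 6, 3 rose and 1 fell, against 14.3% and 23.3% of all genes. The chemokine Ccl20 rose from 1.01, 1.9 and 0.536 RPKM to 12.5, 8.62 and 4.46 (log2 change 2.10, SE 0.36), and Marcksl1 fell from 33.7, 28.7 and 29 to 15.9, 15.9 and 11.2 (log2 change -1.05, SE 0.16).

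Crypt base stem cell genes are the case where the choice of libraries decides the result. Of 19 tested, 1 rose and 1 fell with all 6 libraries, against 14.3% and 23.3% of all genes. The median log2 change was -0.47. Without day 0 line 1, 1 rose and 13 fell, against 16.3% and 28.4% of all genes. With the line as a block 1 rose and 3 fell, against 14.5% and 26.6%. The increase was Olfm4, a secreted stem cell marker (chromosome 14, 80000302 to 80023141), which was at 125, 106 and 140 RPKM at day 0 and 577, 407 and 355 at day 5 (log2 change 1.82, SE 0.20, adjusted p = 0.00103). Olfm4 rose in all 3 lines, but was not called in the model over all 18 libraries (adjusted p = 0.0981). Lgr5, the R-spondin receptor of these cells (chromosome 10, 115450314 to 115587780), was at 1.33, 28.3 and 32 RPKM at day 0 and at 4.15, 5.85 and 5.43 at day 5 (log2 change -1.11, SE 0.93, adjusted p = 0.364). The day 5 values were close together, while day 0 line 1 was far below lines 2 and 3; without that library the adjusted p was 0.000472. Ascl2, a Wnt-driven transcription factor, was at 0.294, 4.4 and 3.71 RPKM at day 0 and 4.93, 4.9 and 4.08 at day 5 (log2 change 0.81, adjusted p = 0.224), with the same low library. Axin2, a feedback inhibitor and target of Wnt, was at 15.4, 35.1 and 37 RPKM and then 16.6, 19.5 and 22.8 (log2 change -0.47, adjusted p = 0.27, and 0.0077 without day 0 line 1). Znrf3, which removes Wnt receptors, was the member that fell, from 2.56, 3.59 and 3.5 RPKM to 1.1, 1.58 and 1.76 (log2 change -0.77, SE 0.17, adjusted p = 0.0117). Line by line, 15 of the 19 genes were higher at day 5 in line 1, while 16 were lower in line 2 and 16 in line 3; 11 were up in line 1 and down in both others. Since line 1 also lacked DNase, line and DNase cannot be told apart here.

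**Figure D3:**
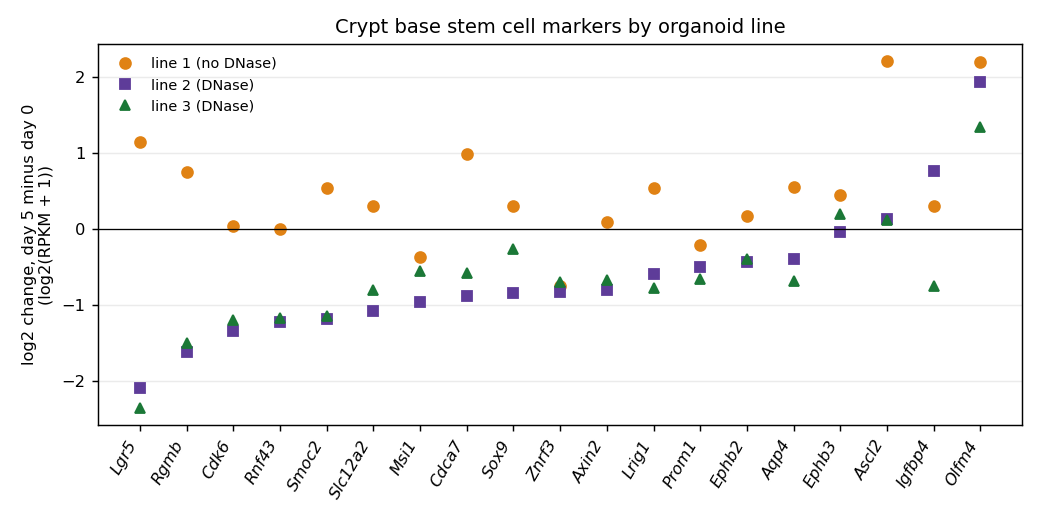
Log2 change of 19 crypt base stem cell markers from day 0 to day 5 (y axis) in each of the 3 organoid lines (circles line 1, squares line 2, triangles line 3). In lines 2 and 3 Lgr5 changed by -2.10 and -2.36 and in line 1 by 1.14, while Olfm4 is above 0 in all 3.

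Notch, Wnt and BMP signals act on these cells. Of 16 tested Notch genes 5 fell and 1 rose, with a median log2 change of -0.38, where 23.3% of all genes fell and 14.3% rose, so the count is near that of all genes. Notch1, a receptor, fell from 7.23, 12.5 and 10.1 RPKM to 2.75, 3.8 and 5 (log2 change -1.17, SE 0.24, adjusted p = 0.00912), and Hes1, a target of Notch, from 59.5, 68.4 and 48.6 to 33, 42.1 and 39.9 (log2 change -0.60, SE 0.16, adjusted p = 0.0253). The days did not overlap for either gene, but Hes1 was not called after rescaling, in the DNase-treated lines alone or without day 0 line 2 or any 1 of the day 5 libraries. Only 2 Notch genes were called lower after rescaling, and without day 0 line 1, 5 fell and 2 rose. Of 16 tested Wnt targets, 2 fell and 1 rose, a smaller part than among all genes. Without day 0 line 1, 6 fell and none rose. Ccnd1, cyclin D1, was the one that rose, from 3.78, 3.29 and 10.9 RPKM to 11.8, 22.7 and 19.3 (log2 change 1.55, SE 0.41, adjusted p = 0.0227). That call was lost without line 1 or 2 of day 0 and without line 2 or 3 of day 5, with an adjusted p of up to 0.0867. Of 7 tested BMP genes only Bmp7 was called, a smaller part than the 23.3% of all genes that fell. Bmp7 went from 3.84, 5.06 and 9.19 RPKM to 1.79, 2.16 and 2.68 (log2 change -1.07, adjusted p = 0.0205, and called neither without day 5 line 1 nor without day 5 line 2). The median of that list, -1.07, turned positive without day 0 line 1 (0.04), where Id1 and Id3 were high.

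Markers of fetal or regenerating epithelium were higher at day 5 and uneven between lines. Of 15 tested 2 passed through day 5 alone, and of the other 13, 7 rose and none fell, with a median log2 change of 1.66. Over all 15 tested, 9 rose and none fell as fitted, and 6 rose and 1 fell with the line as a block. Clu, clusterin, was at 1.8, 0.114 and 0.0961 RPKM at day 0 and at 12.3, 165 and 35.9 at day 5 (log2 change 4.85, SE 0.85, adjusted p = 0.00582). Line 2 was highest by far at day 5. S100a6, a calcium-binding protein, was at 30.2, 2.31 and 3.09 RPKM at day 0 and at 75.7, 369 and 92 at day 5 (log2 change 4.2, SE 0.93, adjusted p = 0.0124). Here too line 1 was highest at day 0 and line 2 at day 5. Msln, mesothelin, was at most at 0.135 RPKM at day 0 and at 11.8, 86.9 and 20.8 at day 5 (log2 change 4.73, SE 0.62). Sprr1a, a small proline-rich protein, was at 13.9, 0.131 and 0.551 RPKM and then 14.5, 176 and 36.1; its call (adjusted p = 0.0314) was lost with the line as a block (0.0681) and without line 2 or 3 of either day. Ly6a, the Sca-1 antigen, was at 1.3, 0.186 and 0.152 RPKM and then 3.55, 28.7 and 5.85 (log2 change 2.73, SE 0.66, adjusted p = 0.017), and was not called without day 0 line 3 or in the model over all 18 libraries (up to 0.0563). Among 12 tested YAP target genes 1 passed through day 5 alone. Of the other 11 none rose and 2 fell, against 14.3% and 23.3% of all genes. Without day 0 line 1, 3 of the 12 rose. The one that passed through day 5 alone was called higher. Ctgf, a matricellular protein, was at 0.23, 0.0259 and 0.0362 RPKM and then 1.23, 11.8 and 2.64. Yap1 itself was at 12.5, 11.5 and 11.2 RPKM at day 0 and at 9.9, 10.3 and 10.1 at day 5 (log2 change -0.19, SE 0.11, adjusted p = 0.19).

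Most genes of cell division fell. Of 32 tested genes of G2 and mitosis all 32 fell, against 23.3% of all genes, with a median log2 change of -1.0; 29 fell after rescaling and 32 without day 0 line 1. Of 32 genes of S phase 28 fell and none rose, with a median of -0.78, and the count was 28 after rescaling and 31 without day 0 line 1. Mki67, the Ki-67 proliferation marker (chromosome 7, 135689784 to 135716450), was at 50.6, 65.4 and 59.4 RPKM at day 0 and at 9.08, 17.8 and 25.7 at day 5 (log2 change -1.79, SE 0.33, adjusted p = 0.00668). Line 1 was lowest on both days, and the days did not overlap. Cenpe, a kinetochore motor, went from 14.5, 13.9 and 13.9 RPKM to 2.9, 4.57 and 5.57 (log2 change -1.53, SE 0.20, adjusted p = 0.00168), and Top2a, the topoisomerase of dividing cells, from 76.6, 89.4 and 91.8 to 27, 36.4 and 41.8 (log2 change -1.29, SE 0.18). Kif20a, a kinesin needed for cytokinesis, went from 28.3, 26 and 29 RPKM to 10.3, 11.8 and 11.8 (log2 change -1.23, SE 0.11). Rrm2, the subunit of ribonucleotide reductase made in S phase, went from 63.1, 72.1 and 54.7 RPKM to 19.9, 20.3 and 20.3 (log2 change -1.59, SE 0.13, adjusted p = 0.000275).

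Genes of ribosome biogenesis fell as well. Of 30 tested genes of ribosome biogenesis 21 fell and none rose, with a median log2 change of -0.69; 13 fell after rescaling and 29 without day 0 line 1. Utp20, a processome protein, fell from 9.79, 9.66 and 8.46 RPKM to 2.42, 3.84 and 4.72 (log2 change -1.17, SE 0.20, adjusted p = 0.00507), and Polr1a, the large subunit of RNA polymerase I, from 7.38, 12.5 and 12.3 to 2.72, 4.61 and 6.27 (log2 change -1.10, SE 0.29, adjusted p = 0.0217, lost without day 0 line 2 or 3 or day 5 line 1 or 2). Among 45 tested ribosomal protein genes 7 fell and none rose, a smaller part than the 23.3% of all genes. The count was 12 without day 0 line 1, where 28.4% of all genes fell, and 4 after rescaling, where 14.3% fell. In the DNase-treated lines it was 24, a larger part than the 32.5% of all genes. Their share of summed RPKM over 50 genes was 4.21, 4.51 and 5.13% at day 0 and 3.03, 3.04 and 2.89% at day 5. Ribosomal protein genes have many processed copies in the genome, and how reads matching several places were counted is not given in the sources used here.

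**Figure D4:**
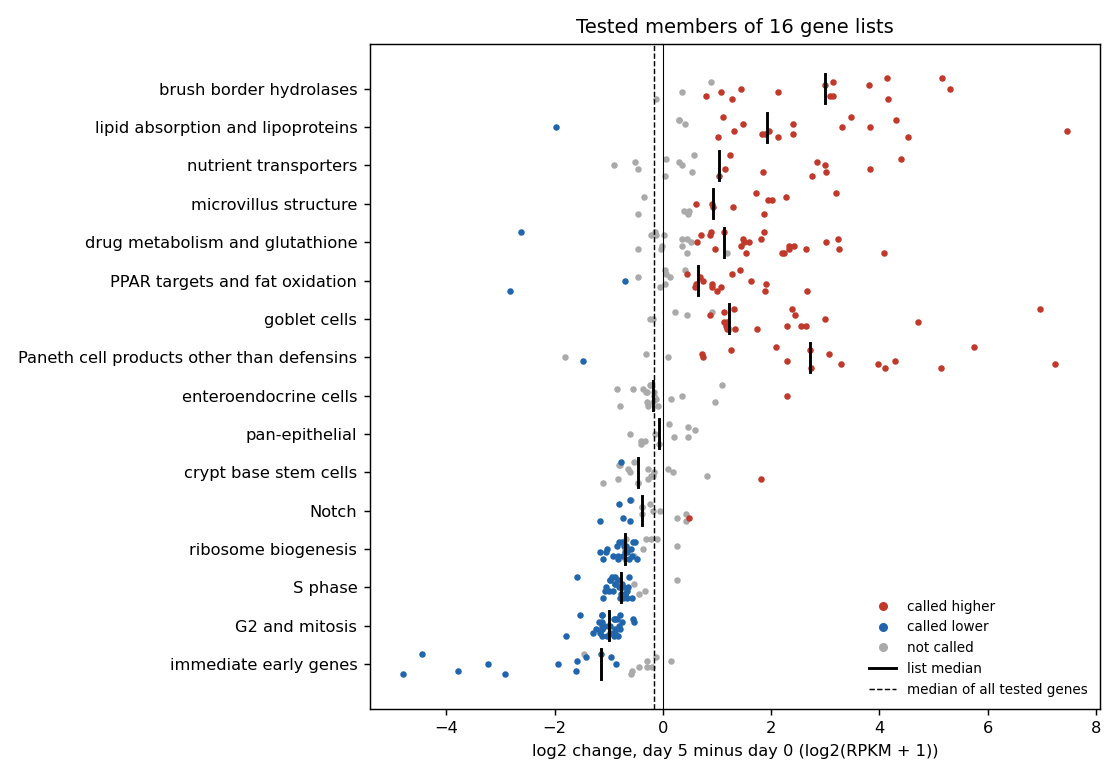
Log2 change from day 0 to day 5 (x axis) of the tested members of 16 gene lists, each point 1 gene, coloured by whether it was called higher (red), lower (blue) or not called (grey), with the list median as a black bar and the median of all tested genes as a dashed line. Medians as plotted range from 2.99 for brush border hydrolases to -1.15 for immediate early genes. They include members that passed the filter through 1 day alone and so had to differ. Without those members the 2 medians were 3.03 and -0.96, and G2 and mitosis, which held none, was at -1.0.

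Immediate early genes, transcription factors switched on within minutes by growth factors and stress, showed the largest decreases. Of 21 tested 2 passed the filter through day 0 alone. Of the other 19, 10 fell and none rose, against 23.3% and 14.3% of all genes, with a median log2 change of -0.96. Fos (chromosome 12, 85473890 to 85477274) was at 300, 114 and 133 RPKM at day 0 and at 2.76, 7.11 and 6.01 at day 5, a mean of 34.5-fold lower (log2 change -4.80, SE 0.41, adjusted p = 0.000351). Line 1 was highest at day 0 and lowest at day 5. Egr1 was nearly equal in the day 0 libraries, at 98.7, 96.4 and 95.4 RPKM, and at 1.64, 4.37 and 5.33 at day 5 (log2 change -4.45, SE 0.30). Jun fell from 80, 82.1 and 73.6 RPKM to 6.12, 8.33 and 8.18 (log2 change -3.23, SE 0.14, adjusted p = 2.27e-05), with little spread among lines on either day. Fosb, a partner of Jun, was at 28.7, 6.35 and 13.7 RPKM at day 0 and at 0.0203, 0.111 and 0.0609 at day 5, and Egr2 at 5.55, 8.45 and 6.99 and then 0.0451, 0.0784 and 0.0423. The growth factor Hbegf, itself induced with these genes, fell from 23.2, 8.58 and 8.78 RPKM to 0.914, 2.43 and 1.82 (log2 change -2.31, SE 0.39).

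Metallothioneins, small proteins that bind zinc and copper and are induced by metals and stress, had the highest mean levels of all genes at day 0, although in line 1 Eef1a1 was higher, at 1613 RPKM. Mt1 was at 1163, 2582 and 2204 RPKM at day 0 and at 422, 236 and 355 at day 5 (log2 change -2.51, SE 0.34, adjusted p = 0.00213). Mt2 was at 1224, 2602 and 2122 RPKM and then 250, 114 and 202 (log2 change -3.39, SE 0.36, adjusted p = 0.000826). The 2 neighbouring genes were in the same order over the 6 libraries, with line 2 highest at day 0 and lowest at day 5. The sequence before Mt2 is shown because metal response elements, bound by the zinc-sensing factor MTF1, have the core TGCACNC or TGCGCNC. In the 250 bases before its RefSeq start (chr8:94172368-94172617, plus strand, GRCm38.p6), written 5′ to 3′, capitals mark 3 matches on either strand, the last of which is on the opposite strand.
Mt2: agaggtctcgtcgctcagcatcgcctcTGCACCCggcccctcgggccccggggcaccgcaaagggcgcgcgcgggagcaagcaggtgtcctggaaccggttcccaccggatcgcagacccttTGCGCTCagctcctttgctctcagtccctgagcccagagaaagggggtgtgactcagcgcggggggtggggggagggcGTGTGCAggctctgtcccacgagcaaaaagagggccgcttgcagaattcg
Of 32851 such windows 21.4% held at least 1 of the cores and 1.26% at least 3. These letters are short and frequent, and no binding was measured. Other genes of the zinc list moved both ways. The importer Slc39a4 rose from 18.9, 9.48 and 13.7 RPKM to 52.8, 75.2 and 38.4 (log2 change 1.91, SE 0.30). Slc30a10, which is in the list by its family name, rose from 1.02, 3.69 and 4.26 RPKM to 15.8, 9.15 and 13.5 (log2 change 1.88, SE 0.37). Slc39a8 fell from 11.2, 17.2 and 13.3 RPKM to 7.39, 7.37 and 7.56 (log2 change -0.80, SE 0.16), but was not called in the model over all 18 libraries. In all, 4 of the 13 tested genes of the zinc list fell and 2 rose. Among all genes 23.3% fell and 14.3% rose, so these counts are near those of all genes.

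Among the 12 largest decreases were also genes with no shared list. Dpysl5, a protein of axon guidance, was at 9.12, 13.9 and 9.73 RPKM at day 0 and at 0.76, 0.954 and 0.821 at day 5 (log2 change -2.67, SE 0.17). Pdia2, a protein disulfide isomerase, was at 22.4, 12.6 and 13.2 RPKM and then 1.04, 3.49 and 1.76 (log2 change -2.49, SE 0.32). Gng11, a G protein gamma subunit, was at 12.6, 9.56 and 14.8 RPKM and then 0.982, 1.25 and 2.22 (log2 change -2.43, SE 0.23). None of the 3 overlapped between the days. The chaperone Hsp90ab1 fell less in relative terms, from 873, 1079 and 1146 RPKM to 562, 709 and 679 (log2 change -0.66, adjusted p = 0.0211), but was among the 5 largest decreases in mean RPKM; it was not called after rescaling, without day 0 line 2 or 3, or without day 5 line 1 or 2.

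Lists of energy metabolism and lipid synthesis stand beside shares of 14.3% higher and 23.3% lower among all genes. Of 20 tested genes of glycolysis 4 rose and none fell, and 3 rose and 1 fell without day 0 line 1. Pklr, the liver-type pyruvate kinase, rose from 170, 186 and 165 RPKM to 413, 523 and 523 (log2 change 1.47, SE 0.14). Of 24 genes of cholesterol synthesis 7 rose and 1 fell, and 12 rose and none fell after rescaling. Sc5d, a sterol desaturase, rose from 35.3, 35.2 and 32.9 RPKM to 69.6, 73.3 and 60.8 (log2 change 0.96, SE 0.12). Of 15 genes of fatty acid synthesis 5 fell and 2 rose, and Fads1, a desaturase, went from 59.8, 132 and 122 RPKM to 28.5, 42.6 and 37.3 (log2 change -1.44, SE 0.31). Of 39 genes of the respiratory chain 8 rose and none fell, with a median log2 change of 0.29 that turned to -0.15 with quantile normalization. The count was 4 with the line as a block, 5 without day 0 line 1 and 15 after rescaling. Sdhb, a subunit of complex II, rose from 116, 149 and 159 RPKM to 295, 240 and 240 (log2 change 0.87, SE 0.16).

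Genes of ion and fluid transport rose in larger number than they fell, and some genes of mucosal defence rose. Of 22 tested ion transport genes 2 passed through day 5 alone, and of the other 20, 11 rose and 2 fell, with a median log2 change of 0.79. Without day 0 line 1, 4 of the 22 fell. Guca2b, uroguanylin, a hormone that controls salt and water secretion, rose from 11.3, 9.92 and 9.21 RPKM to 604, 284 and 344 (log2 change 5.14, SE 0.27, adjusted p = 4.82e-05), and its relative Guca2a, guanylin, from 20.3, 7.48 and 21.5 to 89, 96.2 and 65.3 (log2 change 2.39, SE 0.37). Slc26a6, an anion exchanger, rose from 9.22, 7.76 and 5.12 RPKM to 86, 69.9 and 74.1 (log2 change 3.24, SE 0.20). Aqp1, a water channel, fell from 82.1, 169 and 117 RPKM to 56.6, 40.5 and 41.2 (log2 change -1.35, SE 0.27). Of 16 tested interferon and MHC genes 1 passed through day 5 alone. Of the other 15, 4 rose and 2 fell, against 14.3% and 23.3% of all genes. B2m, the light chain of MHC class I, rose from 153, 152 and 140 RPKM to 515, 331 and 359 (log2 change 1.41, SE 0.18), and H2-D1, a heavy chain with close paralogs, from 63.2, 50.8 and 71.6 to 133, 108 and 112 (log2 change 0.92, SE 0.16). Of 12 tested chemokine and NF-kB genes 5 rose and 1 fell, and 8 rose without day 0 line 1. Il18, an epithelial cytokine, rose from 1.34, 0.736 and 1.19 RPKM to 60.9, 25.7 and 37.2 (log2 change 4.26, SE 0.30). Ccl25, the chemokine that draws lymphocytes to the small intestine, rose from 53.3, 94.8 and 82.1 RPKM to 278, 200 and 204 (log2 change 1.58, SE 0.24).

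Clock genes, 16 of which were tested, gave 1 increase and 3 decreases, smaller parts than among all genes (14.3% and 23.3%). Per1 fell from 11.4, 9.53 and 8.42 RPKM to 3.59, 4.35 and 4.06 (log2 change -1.10, SE 0.14), Per2 from 9.3, 7.01 and 11 to 2.57, 4.6 and 4.27 (log2 change -1.08, SE 0.22) and Nfil3, a repressor of the clock output, from 6.09, 6.12 and 6.42 to 1.42, 3.07 and 2.9 (log2 change -1.09, SE 0.21). Dbp, a clock output gene, rose from 1.02, 2.88 and 6.11 RPKM to 19.5, 10.9 and 12.3 (log2 change 1.95, SE 0.44).

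Among genes with a mean of at least 50 RPKM, the 5 whose 95% interval for the log2 change stayed closest to 0 were Lgals3bp, Gnb2, Cfl1, Kmt5a and Pdia3. Cfl1, cofilin, was at 277, 274 and 277 RPKM at day 0 and at 267, 286 and 267 at day 5 (log2 change -0.01, SE 0.11), and Gnb2, a G protein beta subunit, at 157, 159 and 181 and then 165, 167 and 166 (log2 change 0.01, SE 0.12). That steadiness holds for the values as deposited: with quantile normalization the log2 change was -0.39 for Lgals3bp, -0.48 for Gnb2, -0.58 for Cfl1 and -0.53 for Pdia3, each at an adjusted p under 0.05, and -0.20 for Kmt5a. Eef1a1, the elongation factor among the 5 most abundant transcripts at day 0, was at 1613, 1615 and 1688 RPKM and then 1623, 1334 and 1137 (log2 change -0.28, SE 0.18, adjusted p = 0.235).

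The days between show when the endpoints were reached, as a description of means of 3 libraries without a test. Each called gene was assigned the day from which its mean log2(RPKM + 1) stayed past the midpoint of the day 0 and day 5 means. Among the 1527 genes called higher that day was day 1 for 511 (33.5%), day 2 for 182, day 3 for 188, day 4 for 462 (30.3%) and day 5 for 184. Among the 2489 called lower it was day 1 for 786 (31.6%), day 2 for 167, day 3 for 437, day 4 for 920 (37%) and day 5 for 179. Immediate early genes had crossed by day 1 in 11 of 12 cases, and Mt2 was at a mean of 135 RPKM on day 1. Genes of G2 and mitosis crossed at day 4 in 26 of 32 cases and genes of ribosome biogenesis in 19 of 21. Alpi was near its final level by day 1, with a mean of 551 RPKM, whereas Sis was at 68.2 on day 1 and 630 on day 4. Reg1 was at 4.16 RPKM on day 1, 46.8 on day 3 (SD 71.6) and 806 on day 4 (SD 1244), so its libraries differed widely on days 3 and 4. By their means 5 of the 6 called Reg genes crossed at day 4. Of the Paneth cell genes called higher, 5 crossed at day 4 and 6 at day 5.

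Some endpoints hide larger changes on the way. A middle day lay above both ends by at least 1 on the log2 scale for 34 of the genes called higher and 4 of those called lower, and below both for 61 and 13. Olfm4 dropped to a mean of 5.09 RPKM on day 1 before rising to 219 on day 4 and 446 on day 5. Lgr5 was at 0.682 RPKM on day 2 and 2.22 on day 4. Msln went the other way, with a mean of 122 RPKM on day 1 (SD 101) and 193 on day 3 (SD 259). The day 3 libraries thus differed widely, and on the log2 scale its highest middle day was day 1. S100a6 was at 905 RPKM on day 1 (SD 414) and 907 on day 2 (SD 403). Ly6a was at 87.4 RPKM on day 3 and 11.2 on day 4, and the keratin Krt7 was at 353 on day 2 and at 68.1, 168 and 86.6 at day 5. Itln1, a lectin of Paneth cells plotted after its values were seen, was at 45 RPKM on day 2, below its 394, 673 and 433 at day 0 and 955, 856 and 658 at day 5. The medium changed at day 0, at day 1 with the end of CHIR99021, and at day 3 with the end of Wnt3a-conditioned medium and Y-27632. Time and medium cannot be told apart. On days 1 and 2, replicate 2 came from line 1 by its title, so those means rest on 2 lines.

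**Figure D5:**
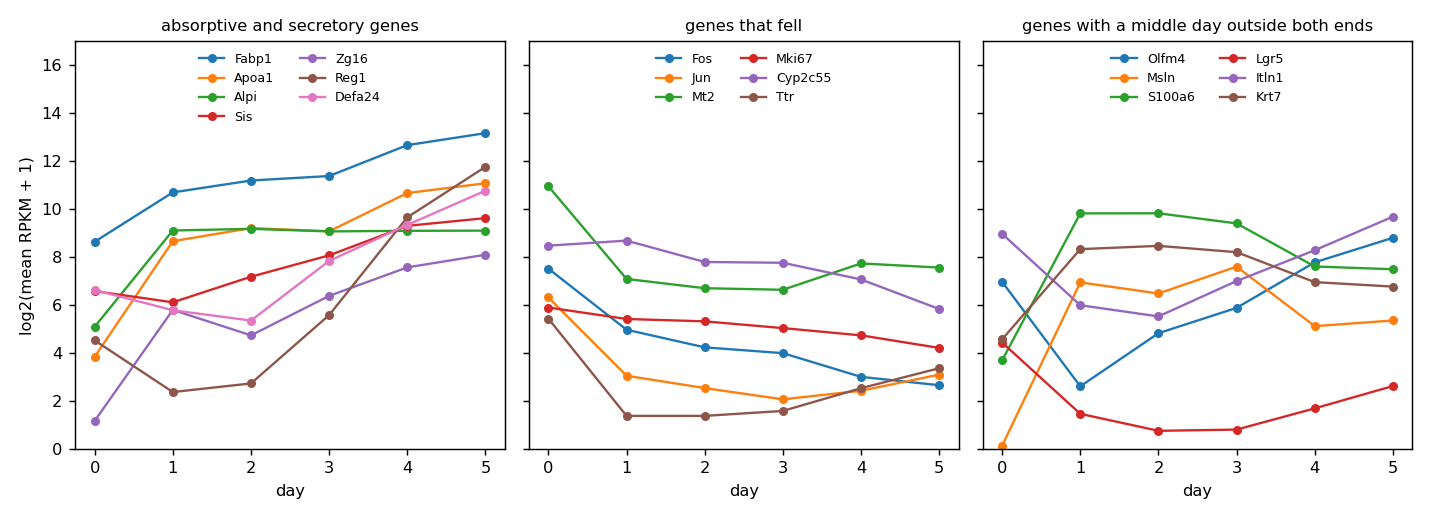
Log2 of the mean RPKM plus 1 (y axis) on days 0 to 5 (x axis) for absorptive and secretory genes (left), genes that fell (middle) and genes with a middle day outside both ends (right), each point the mean of 3 libraries. Olfm4 drops to 5.09 RPKM on day 1 and ends at 446, while S100a6 rises from 11.9 to 905 on day 1 and ends at 179.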

How the data were processed

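Messenger RNA was sequenced from 18 organoid samples, of which the 6 of days 0 and 5 are analysed here and the other 12 only as means per day. The authors deposited RPKM values, 1 column per library. Per the submitters' processing notes, bcl2fastq 2.17, STAR 2.5.2b and edgeR 3.20.5 were used with the mouse build mm10; what each did, how reads matching several places were counted and whether strand was used is not recorded there. RPKM are shares of a library, so a few abundant genes lower all others. No read counts were used, and no count model was fitted. Depth was inferred from low values, as the depth at which 1 read over the RefSeq span of a gene gives its value. The most frequent result was taken, which 46 to 66 genes shared in each library.

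Values were transformed as log2(RPKM + 1). Genes with at least 1 RPKM in 3 of the 6 libraries were fitted with limma 3.58.1 in R 4.3.3 (day as the term, empirical Bayes with a mean trend), and p-values were Benjamini-Hochberg adjusted over all of them, with a threshold of 0.05. The fit was tested on simulated data. A single gene compared by exact permutation could not go below p = 0.1 with 3 libraries a day. The same organoid line gave replicate 1, 2 or 3 on both days, so the numbers pair the samples; deviations of same-numbered libraries from their day's mean correlated at 0.152, -0.037 and 0.307.

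Named genes were the 12 largest increases and decreases among called genes without overlap, with a higher mean of at least 5 RPKM leaving out pseudogenes and names of the form Gm plus a number, Rik, LOC, AI, AA, BC or AW; up to 4 called members of each list in each direction; a fixed set of markers; the 5 highest means of each day; the 5 steadiest genes of at least 50 RPKM; and the 5 largest differences in mean RPKM each way. Some genes that the rule names are not reported here. The comparison, the 54 gene lists and the named-gene rule were chosen with earlier results of these data known. Coordinates and sequences are from RefSeq GRCm38.p6, to which 24061 of the 24116 genes matched by Entrez number. The 15 alternatives were a model over all 18 libraries, a block for the line, a pseudocount of 0.1, no filter, a filter of 5 RPKM, quantile normalization, median-of-ratios rescaling, the DNase-treated lines alone, array weights, and each library left out.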

Additional observations from a re-analysis of the deposited data

Results flagged for a closer look

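Lgr5 moved in opposite directions in the organoid lines. Its log2 change from day 0 to day 5 was 1.14 in line 1, which was prepared without DNase, and -2.10 and -2.36 in lines 2 and 3, which were prepared with it. At day 0 the value of line 1 was far below those of lines 2 and 3, while at day 5 the lines were close together. The opposite sign thus rests on 1 library, day 0 line 1. Its correlation across genes with day 0 lines 2 and 3 was 0.951 and 0.95, against 0.984 between those lines. With 1 library per line and day the difference between the lines was not tested, and line and DNase treatment cannot be told apart.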

How the results depend on the processing

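Of 197 called named genes, 120 were called under each of the 15 alternatives, 66 lost the call in at least 1, and 11 were called under each of the others but removed by the filter of 5 RPKM. As fitted, 1527 genes rose and 2489 fell. The count of decreases was 1476 with all 18 libraries in 1 model, 3952 with array weights, 1614 with a filter of 5 RPKM and 1530 after median-of-ratios rescaling. With 1 library left out it ran from 1265 to 3037, and the count of increases from 1069 to 1740. With the line as a replicate block 1548 genes rose and 2845 fell, and among named genes the block ended the call of Slc30a2, Sprr1a, Jag2, Numb, Bst2, Cftr, Cox6a1, Flna, Hspa4, Itga1, Lama5, F11r, Cxcl16 and Ssr1 (adjusted p between 0.0502 and 0.105) and of no other. With quantile normalization the log2 change turned to -0.02 for Ldha, -0.05 for Cox5a, -0.04 for Cox6a1, -0.39 for Lgals3bp and -0.48 for Gnb2, and the median of the respiratory chain to -0.15. In small lists counts moved by over 1.5 times as well: after rescaling 5 zinc genes rose in place of 2, 3 fatty acid synthesis genes fell in place of 5, and no interferon or MHC gene fell in place of 2. With the replicate block 2 drug metabolism genes fell in place of 1, and 2 genes each of the tuft, Wnt and clock lists rose in place of 1. The median of the BMP list turned to 0.06 in the DNase-treated lines, 0.19 with array weights and 0.04 without day 0 line 1, and with other libraries left out it reached -1.17. The cause was not tested.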
